A study of Mus musculus with 12 samples.

Results

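The insulin-like growth factor (IGF) axis was followed as 10 genes: the ligand Igf1, the receptors Igf1r and Igf2r, and the binding proteins Igfbp1 to Igfbp7. They were picked by gene symbol. All 10 were found among the 24062 genes of the count table, and all 10 passed the filter on low counts. The counts came from RNA-seq of whole kidney from 12 adult mice of a Pkd1 model of polycystic kidney disease, with 3 libraries in each of 4 groups. All mice were tamoxifen-induced, those without Cre included, and the labels give their age as 6 to 8 weeks. CrePlus mice carried Cre, the enzyme intended to cut Pkd1 out of the genome, and CreMinus mice lacked it; Pkd1 encodes polycystin-1, whose gene is the one most often mutated in the inherited disease. Sham mice kept both kidneys, UNx mice lost 1 kidney by unilateral nephrectomy, and tissue was taken 4 weeks after the operation. The 4 groups were thus the CreMinus and CrePlus mice of each surgery. None of the sources used here gives the promoter that drives Cre, the deleted part of Pkd1 or the strain.

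IGF-1 is a growth hormone-dependent peptide hormone, made mainly in the liver and also locally in kidney. It signals through the IGF-1 receptor, a tyrosine kinase, to the PI3K, AKT and mTOR pathway of cell growth. The receptor encoded by Igf2r carries mannose 6-phosphate-tagged enzymes to lysosomes and removes IGF-2 from the cell surface. The binding proteins hold IGFs in blood and tissue, and proteases such as pregnancy-associated plasma protein A release the ligand by cutting them. In the kidney the axis is known for its part in the growth of the remaining kidney after nephrectomy, which is the setting that the UNx groups provide.

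Sequencing depth, as the sum of counts, was 18914300 to 22480895 for 8 libraries; it was 41699032 to 42785476 for the other 4, namely the 3 UNx CrePlus libraries and UNx CreMinus 1. Counts of Xist and of 4 Y-linked genes marked 5 libraries as male: sham CreMinus 3, sham CrePlus 3, UNx CreMinus 1, UNx CrePlus 1 and UNx CrePlus 2. The other 7 were female, so the sham groups held 1 male each and the UNx groups 1 and 2. Only the UNx CreMinus group held libraries of both depths, so a fitted term for depth rests mainly on UNx CreMinus 1, a male. Levels are given as CPM, counts scaled to library size. The targeted gene Pkd1 stood at 57.8 to 76.8 CPM in sham kidneys without Cre and at 45.9 to 64.1 CPM with Cre, and at 49.3 to 71.6 and 39.6 to 45.5 CPM after UNx. Because no source names the deleted part, these values do not measure the deletion. Summed proximal tubule markers lay at 10519 to 12915 CPM in the 12 libraries, and 3 genes listed as hepatocyte markers at 20.0 to 68.1 CPM. Of these 3 only Apoa1 was under 1 CPM on average, and the source of their reads was not tested. The tests below were made with edgeR on the counts of 14970 genes, and a gene was called at a Benjamini-Hochberg adjusted p under 0.05 over all of them. Library sizes for CPM are scaled by trimmed mean of M-values (TMM) factors, and fold changes are log2 values of the edgeR fit with their standard error (SE).

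Per kilobase of exon, the binding proteins filled the top of the order of levels and the ligand lay near the bottom. Igfbp7, a binding protein known mostly for binding to vessel matrix and only weakly to IGFs, had a median of 950 CPM per kb over the 12 libraries. Igfbp4, which holds IGFs back from their receptor until it is cut, came next at 189 CPM per kb. Igfbp5, a binding protein that attaches to extracellular matrix, stood at 93.8 and Igfbp3, the main carrier of IGFs in blood, at 75.9 CPM per kb. Igfbp7 was above Igfbp4, Igfbp4 above Igfbp5 and Igfbp3 above Igfbp1 in 12 of 12 libraries, with no overlap of their ranges. Igfbp5 was above Igfbp3 in 9 of 12 libraries, and their ranges overlapped. In the middle of the order were Igfbp1, an insulin-regulated binding protein, at 19.8 CPM per kb, Igf2r at 15.8 and Igf1r at 12.98. Igfbp1 was above Igf2r in 7 of 12 libraries. Igf2r was above Igf1r in 12 of 12 libraries although their ranges overlapped. This order rests on the division by exon length, 16791 bases for Igf1r and 9308 for Igf2r. Before it, Igf1r was the higher, at 161 to 318 CPM against 114 to 184 CPM. Igf1 had a median of 1.31 CPM per kb, and Igfbp2 and Igfbp6, both binding proteins that favour IGF-2, had 0.528 and 0.491. Igfbp2 was above Igfbp6 in only 5 of 12 libraries. Exon lengths were the union of all annotated exons of a gene in GENCODE M21, since no source used here names the annotation of the authors' counting.

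**Figure D1:**
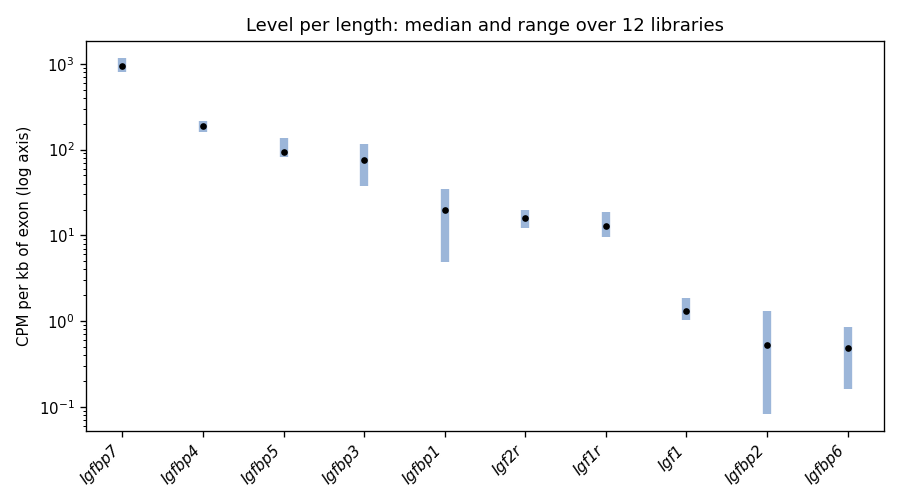
Level of the 10 IGF axis genes per kilobase of exon on a log axis, with the median (point) and the range (bar) over 12 kidney libraries. Igfbp7 stands highest with a median of 950 CPM per kb, and Igfbp2 and Igfbp6 lowest with overlapping bars.

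The binding protein genes lie partly in pairs on GRCm38. Igfbp2 (chromosome 1, 72824503 to 72852474, plus strand) and Igfbp5 (chromosome 1, 72857932 to 72874884, minus strand) point towards each other across 5457 bases. Igfbp1 (chromosome 11, 7197782 to 7202546, plus strand) and Igfbp3 (chromosome 11, 7206086 to 7213923, minus strand) do the same across 3539 bases, and no protein-coding gene lies between the members of either pair. Igfbp4 is also on chromosome 11 (99041244 to 99054392), but with 1071 protein-coding genes between it and Igfbp3. Igfbp6 is on chromosome 15 (102144362 to 102149511) and Igfbp7 on chromosome 5 (77349240 to 77408041). The ligand gene Igf1 is on chromosome 10 (87858265 to 87937042), Igf1r on chromosome 7 (67952827 to 68233668) and Igf2r on chromosome 17 (12682406 to 12769664). Igf2r overlaps the antisense gene Airn, Igf1 overlaps Igf1os, and Igfbp7 overlaps Polr2b and an antisense gene. The library kit does not mark the strand, so reads shared by such genes could not be assigned and the levels of these members are uncertain to that extent.

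The results below turn most on Igfbp5, which lay higher in CrePlus kidneys, and on Igfbp1, which lay lower in male kidneys. The sequence before the start of each is shown for that reason. All 10 members had a RefSeq promoter window on GRCm38.p6, and windows of 9 were kept, all but that of Igf1. The windows start 250 bases before the RefSeq start and were ended before the outermost annotated start, so that no transcribed base is shown, which leaves 231 bases for Igfbp5 (chr1:72874885-72875115, minus strand) and 245 bases for Igfbp1 (chr11:7197537-7197781, plus strand). Capitals mark the letters GCCNNNGGC, a form of the AP-2 site, in Igfbp5 and the letters CAAAACA, the core of the insulin response element, in Igfbp1.
Igfbp5: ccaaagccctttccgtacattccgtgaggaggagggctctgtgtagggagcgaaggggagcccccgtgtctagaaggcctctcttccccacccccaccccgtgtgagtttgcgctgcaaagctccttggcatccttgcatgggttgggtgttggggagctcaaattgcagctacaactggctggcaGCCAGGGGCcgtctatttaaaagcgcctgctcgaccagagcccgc
Igfbp1: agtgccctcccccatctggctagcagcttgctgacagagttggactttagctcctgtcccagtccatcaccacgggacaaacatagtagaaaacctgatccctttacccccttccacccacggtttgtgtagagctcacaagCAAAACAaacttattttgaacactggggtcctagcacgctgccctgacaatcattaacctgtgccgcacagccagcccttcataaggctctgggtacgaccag
On both strands, 13.7% of 32851 RefSeq windows of 250 bases held GCCNNNGGC and 5.56% held CAAAACA. TTCNNNGAA, a STAT site, was in 7.02% of windows and in no window kept for a member, and TATAAA was in 12.4% and in those of Igfbp4 and Igfbp6. The searched letters do not overlap each other in these windows, and a match describes the sequence only.

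Igfbp5 was higher in every CrePlus library than in every CreMinus library of the same surgery, although it missed the threshold of the test. In sham CreMinus kidneys it stood at 488, 511 and 500 CPM in libraries 1, 2 and 3. In sham CrePlus kidneys it stood at 655, 570 and 645 CPM. The lowest sham CrePlus library, a female, was thus above all 3 sham CreMinus libraries. In UNx CreMinus kidneys the values were 557, 537 and 534 CPM, and in UNx CrePlus kidneys 732, 616 and 816 CPM. The CreMinus values lay close together in both surgeries, with SDs of 11.3 and 12.6 CPM, against 46.5 CPM in sham CrePlus and 100.5 CPM in UNx CrePlus kidneys. Because the groups of each surgery did not overlap, the order was necessarily the same within each sex. The male CrePlus library of the sham group was above the male CreMinus one, and so were both males and the female of the UNx CrePlus group against their counterparts.

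In sham kidneys Igfbp5 had a log2 fold change with Cre of 0.32 ± 0.11 (SE, edgeR adjusted p = 1.0, unadjusted p = 0.0172). In UNx kidneys it was 0.41 ± 0.11 (adjusted p = 0.291, unadjusted p = 0.0041). Averaged over surgery it was 0.37 ± 0.08, a fold of 1.29, with an edgeR adjusted p of 0.0877 and an unadjusted p of 0.00086. DESeq2 called Igfbp5 in UNx kidneys (adjusted p = 0.0206) and averaged over surgery (adjusted p = 0.00047), and edgeR with a term for library sex called the average (adjusted p = 0.0353). With terms for both sex and depth the average was 0.32 (adjusted p = 0.268), and no fit that left out a library called it, at adjusted p-values of 0.0629 to 0.268. In the authors' deposited table of Cre in UNx kidneys the shrunken log2 fold change of Igfbp5 was 0.37 with an adjusted p of 0.109. In bulk tissue, more RNA per cell and more cells of the type that makes it cannot be told apart.

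Of 14970 genes, 212 (1.42%) were, like Igfbp5, above every CreMinus library in both surgeries. No overlap in either direction was seen for 2 members with Cre in sham kidneys, Igfbp5 and Igf2r, beside 8.16% of all genes, and for 1 member, Igfbp5, in UNx kidneys, beside 15.8% of all genes. Of the tubular injury markers, 6 of 6 had a positive fold change with Cre in both surgeries. Their summed level in sham kidneys ranged from 888 to 2129 CPM without Cre and from 768 to 3271 CPM with Cre, and in UNx kidneys from 1018 to 3321 CPM and from 2332 to 3727 CPM. The groups overlapped, and Krt20 was under 1 CPM on average. Other lists had, in sham and UNx kidneys, 0 of 5 and 0 of 5 positive for podocyte markers. For loop of Henle and distal tubule they were 1 of 5 and 0 of 5, for collecting duct 3 of 5 and 1 of 5. Proximal tubule had 5 of 6 and 3 of 6, endothelial 0 of 6 and 4 of 6, mural 0 of 5 and 3 of 5. Fibroblast had 3 of 6 and 5 of 6, macrophage 3 of 5 and 4 of 5, T cell 0 of 4 and 3 of 4. The part of injury or of these cells in the level of Igfbp5 was not tested. Over the 12 libraries, the pattern of log2 CPM most like that of Igfbp5 among 13583 genes belonged to Rai14, Il17rd and Tmem64. Their root mean square differences from Igfbp5, in units of each gene's SD, were 0.365, 0.415 and 0.43, against a median of 1.36 for all genes.

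**Figure D2:**
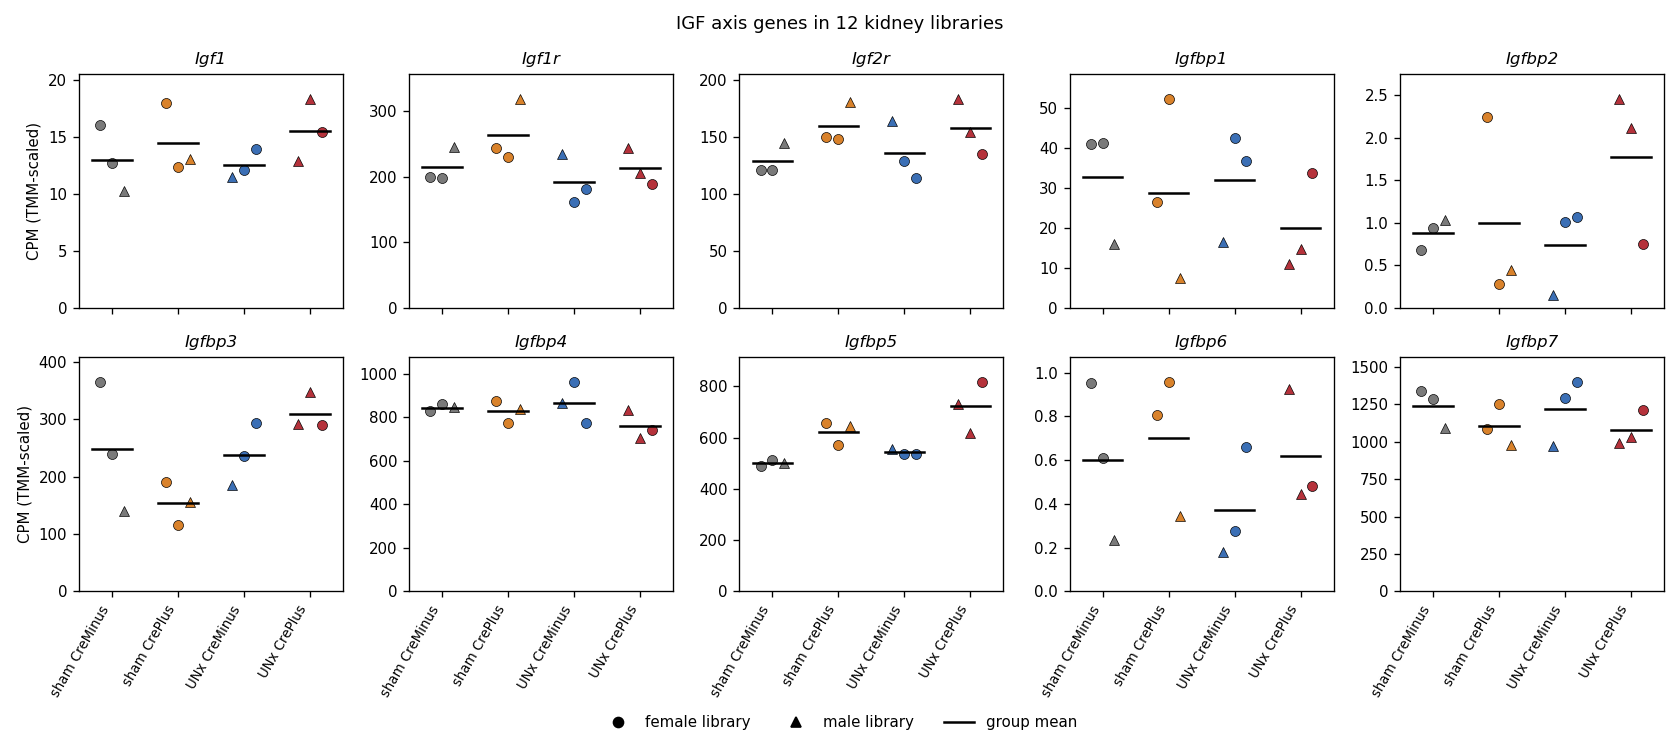
CPM of the 10 IGF axis genes in 12 kidney libraries by group, with circles for female and triangles for male libraries and a line at the group mean. Igfbp5 stands higher in CrePlus than in CreMinus libraries of the same surgery, Igfbp3 is highest in UNx CrePlus kidneys on average, and the male libraries are lowest for Igfbp1 in each group.

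Igfbp3 had the smallest p of the 10 members for UNx in CrePlus kidneys and averaged over Cre status, but not in CreMinus kidneys. Its sham and UNx libraries separated in CrePlus kidneys. In sham CrePlus kidneys its level was 191, 116 and 156 CPM in libraries 1, 2 and 3. In UNx CrePlus kidneys it was 291, 348 and 290 CPM. All 3 UNx libraries, which were the deeply sequenced ones, thus lay above all 3 sham libraries. CreMinus kidneys showed no such separation, with 365, 239 and 140 CPM after sham surgery and 185, 237 and 294 CPM after UNx. The SD of the sham CreMinus group, 112 CPM, was the widest of the 4 groups for this gene.

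The log2 fold change of Igfbp3 with UNx was 1.0 ± 0.31 (SE) in CrePlus kidneys (edgeR adjusted p = 0.692, unadjusted p = 0.0078) and -0.06 ± 0.30 in CreMinus kidneys (adjusted p = 1.0). Averaged over Cre status it was 0.47 ± 0.22 (adjusted p = 0.88). The interaction, the test of whether the effect of UNx differed with Cre, was 1.06 ± 0.43 (adjusted p = 1.0, unadjusted p = 0.0326), so the difference between CrePlus and CreMinus kidneys did not pass. The log2 difference of CrePlus from CreMinus was -0.68 ± 0.31 after sham surgery (adjusted p = 1.0) and 0.38 ± 0.31 after UNx (adjusted p = 0.707). Without sham CreMinus 1 the difference after sham surgery was -0.31 and the interaction 0.67. These comparisons share groups, so their values are not independent of each other. In the authors' deposited table of UNx CrePlus against sham CrePlus kidneys, Igfbp3 was among 15 genes with an adjusted p under 0.05, with a shrunken log2 fold change of 0.81 and an adjusted p of 0.00367. DESeq2 with all 4 groups gave 1.01 (adjusted p = 0.16) here.

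Several lists of markers of other cells were higher in UNx CrePlus than in sham CrePlus kidneys in most of their genes, and the lists were not tested. Other lists did not show this. Positive fold changes were seen for 0 of 5 collecting duct and 1 of 5 loop of Henle and distal tubule markers. For podocyte markers they were 2 of 5 and for proximal tubule markers 3 of 6. The summed level of 5 mural and smooth muscle markers was 123 to 202 CPM in sham CrePlus and 208 to 257 CPM in UNx CrePlus libraries, with no overlap, and 3 of 5 had a positive fold change. For 6 endothelial markers the ranges were 300 to 497 and 450 to 510 CPM, with 5 of 6 positive, and for 6 fibroblast and matrix markers 112 to 393 and 198 to 545 CPM, with 6 of 6 positive. None of these 17 markers was under 1 CPM on average. Tubular injury markers were positive in 6 of 6, with ranges of 768 to 3271 and 2332 to 3727 CPM. Macrophage markers were positive in 4 of 5 (102 to 136 and 90.8 to 163 CPM). T cell markers were positive in 4 of 4 (2.08 to 3.48 and 2.82 to 5.29 CPM), and Cd3e and Cd3d of that list were under 1 CPM on average. The ranges overlapped for each list but the mural one. In CreMinus kidneys the mural sum was 189 to 342 CPM after sham surgery and 138 to 254 CPM after UNx. The part of the cells of these lists in the level of Igfbp3 was not tested. Closest to Igfbp3 in pattern over the 12 libraries were Emid1, Ndufa4l2 and Fkbp7, with root mean square differences of 0.245, 0.281 and 0.3 against a median of 1.37 for all 13583 genes.

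Igf1r and Igf2r, the signalling and the clearing receptor, lay slightly higher with Cre without passing the test. Igf1r was at 199, 198 and 244 CPM in sham CreMinus and at 243, 230 and 318 CPM in sham CrePlus libraries. In UNx CreMinus libraries it was at 234, 161 and 181 CPM and in UNx CrePlus libraries at 243, 206 and 188 CPM. The groups overlapped in both surgeries, and the highest library of each group was a male. CrePlus minus CreMinus, the log2 fold change of Igf1r was 0.30 ± 0.17 (SE) after sham surgery (edgeR adjusted p = 1.0). After UNx it was 0.15 ± 0.17 (adjusted p = 0.811), where a term for sex left 0.04. With UNx it was -0.31 ± 0.17 in CrePlus kidneys (adjusted p = 0.79).

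Igf2r was at 121, 121 and 145 CPM in sham CreMinus and at 150, 149 and 181 CPM in sham CrePlus libraries, which did not overlap. In UNx kidneys it was at 164, 129 and 114 CPM without Cre and at 184, 155 and 135 CPM with Cre, which overlapped. Again the highest library of each group was a male. The difference of Igf2r with Cre was 0.31 ± 0.16 on the log2 scale after sham surgery (edgeR adjusted p = 1.0) and 0.22 ± 0.16 after UNx (adjusted p = 0.669). Averaged over surgery it was 0.26 ± 0.11 (edgeR adjusted p = 0.396, unadjusted p = 0.0387). A term for sex left 0.12 after UNx and 0.21 in the average. Terms for sex and depth left 0.02 and 0.16.

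Igf1 varied little between the groups. After sham surgery its mean was 13.01 ± 2.92 CPM without and 14.5 ± 3.07 CPM with Cre (SD, n = 3), and after UNx it was 12.5 ± 1.27 CPM without and 15.6 ± 2.75 CPM with Cre. The log2 fold change of Igf1 with Cre was 0.15 ± 0.20 (SE) in sham and 0.31 ± 0.20 in UNx kidneys (edgeR adjusted p = 1.0 and 0.616). Library values ran from 10.2 to 18.4 CPM, and every pair of groups overlapped.

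Igfbp4 and Igfbp7, the most abundant members, were the steadiest. Igfbp4 ranged from 703 to 961 CPM over all libraries, and CrePlus differed from CreMinus by -0.03 ± 0.11 (log2) after sham surgery and -0.19 ± 0.11 after UNx (edgeR adjusted p = 1.0 and 0.587). Igfbp7 ranged from 969 to 1398 CPM, with log2 fold changes of -0.16 ± 0.16 and -0.18 ± 0.16 (adjusted p = 1.0 and 0.743). Igfbp2 and Igfbp6 were near the limit of what these libraries count. Igfbp2 stood between 0.154 and 2.46 CPM and Igfbp6 between 0.18 and 0.956 CPM. Their log2 fold changes with Cre in UNx kidneys, 1.32 ± 0.80 and 0.81 ± 0.61, had the widest errors of the 10 members beside Igfbp1 (adjusted p = 0.592 and 0.686). In sham kidneys they were 0.19 ± 0.82 and 0.23 ± 0.60 (adjusted p = 1.0 for both).

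**Figure D3:**
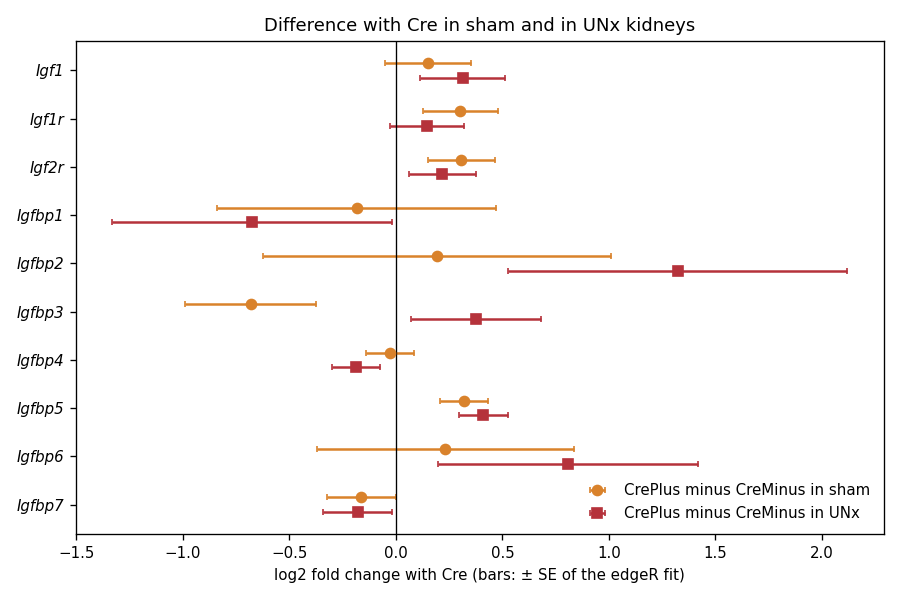
Log2 fold change with Cre of the 10 IGF axis genes in sham (circles) and UNx (squares) kidneys, with bars of ± 1 SE of the edgeR fit. Igfbp5 lies to the right of 0 in both surgeries with short bars, at 0.32 and 0.41, and Igfbp3 lies on opposite sides of 0, at -0.68 and 0.38.

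Over the whole axis, edgeR called 0 of 10 members in each of the 7 comparisons. For Cre in sham kidneys 0.0267% of all genes were called, for Cre in UNx kidneys 0.14%, and for Cre averaged over surgery 0.521%. With UNx in CrePlus kidneys, with UNx in CreMinus kidneys, with UNx averaged over Cre status and in the interaction, 0% of all genes were called. At an unadjusted p under 0.05 stood 2 members for Cre in sham kidneys (Igfbp3 and Igfbp5, beside 4.05% of all genes), 1 for Cre in UNx kidneys (Igfbp5, beside 10.7%) and 2 for Cre averaged over surgery (Igfbp5 and Igf2r, beside 11.8%). For UNx it was 1 member in CrePlus kidneys (Igfbp3, beside 6.83% of all genes), 0 in CreMinus kidneys (beside 1.3%) and 0 in the average (beside 5.66%), and in the interaction 1 (Igfbp3, beside 1.85%). DESeq2 called 1 member, Igfbp5, for Cre in UNx kidneys and for the average over surgery, and 0 in the other 5 comparisons. The share of all genes that DESeq2 called was not counted, and the edgeR shares above do not stand in for it.

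The median of the members' log2 fold changes with Cre came to 0.17 in sham kidneys, where 6 of 10 were positive, and 0.27 in UNx kidneys, where 7 of 10 were positive. The median of all genes was 0.00 and -0.01 in these comparisons. With UNx the members' median was -0.03 in CrePlus and -0.05 in CreMinus kidneys, beside -0.01 and 0.00 for all genes. Groups without overlap were seen for 1 member with UNx in CrePlus kidneys, Igfbp3, beside 9.78% of all genes, and for 1 in CreMinus kidneys, Igfbp5, beside 4.86%. These counts are small enough that 1 member moves each of them by 10 percentage points.

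Genes around the axis were taken from 5 lists of 51 genes in all, of which 48 were tested. EdgeR called 0 of 48 in each of the 7 comparisons. At an unadjusted p under 0.05 were 3 of 48 for Cre in sham kidneys (beside 4.05% of all genes), 6 for Cre in UNx kidneys (beside 10.7%) and 7 for Cre averaged over surgery (beside 11.8%). For UNx they were 8 of 48 in CrePlus kidneys (beside 6.83%), 0 in CreMinus kidneys (beside 1.3%) and 4 in the average (beside 5.66%), and in the interaction 1 (beside 1.85%). The genes named next had the smallest p-values of their list in a comparison, and none of them passed in edgeR with the 4 groups as the only terms and all libraries.

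Among 7 tested genes of ligand supply and growth hormone signalling, the smallest p-values belonged to Socs2, Jak2, Stat5a, Igf2, Igfals and Ghr in the various comparisons. Socs2, a feedback inhibitor that growth hormone induces, was at 15.1 ± 4.88 CPM in sham CreMinus and 27.6 ± 2.95 CPM in sham CrePlus kidneys, and its groups did not overlap. Its log2 fold change there was 0.87 ± 0.23 (SE, edgeR adjusted p = 0.725), and with UNx in CrePlus kidneys it was -0.51 ± 0.23 (adjusted p = 0.725). The latter became -0.0006 with terms for sex and depth. Each UNx CrePlus library was deeply sequenced and no sham CrePlus library was, so depth and UNx cannot be told apart in that comparison. Among 4 receptor genes the smallest p-values were those of Lrp2, Insrr, Insr and Sorl1. Lrp2 encodes megalin, the uptake receptor of the proximal tubule for filtered proteins. It was at 3156 ± 244 CPM in sham CrePlus and 2139 ± 214 CPM in UNx CrePlus kidneys, a log2 fold change of -0.56 ± 0.15 with no overlap (adjusted p = 0.692). Insrr, an orphan receptor related to the insulin receptor, had -0.64 ± 0.25 with Cre averaged over surgery (adjusted p = 0.357).

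Of 10 tested proteases that cut binding proteins and their inhibitors, Stc1, Timp1, Mmp2, Adam9, Adam12, Ctsd and Pappa2 had the smallest p-values. Stc1 encodes stanniocalcin-1, an inhibitor of pregnancy-associated plasma proteins. It averaged 7.71 ± 4.38 CPM without and 26.2 ± 14.9 CPM with Cre after sham surgery, and 8.46 ± 2.40 CPM without and 21.9 ± 3.50 CPM with Cre after UNx. The log2 fold change of Stc1 with Cre averaged over surgery was 1.57 ± 0.34 (edgeR adjusted p = 0.0833), which did not pass. It was called by DESeq2 (adjusted p = 0.000153) and by edgeR with a term for sex (adjusted p = 0.00936), but not in the other 4 of 6 alternative settings. Of 12 fits that left out a library 1 called it, that without sham CrePlus 3, and their adjusted p-values ran from 0.0216 to 0.198. Timp1, an inhibitor of matrix proteases, had 2.51 ± 0.78 in the same average (edgeR adjusted p = 0.234). DESeq2 called that average (adjusted p = 0.0182), but none of the other 5 settings and 0 of 12 fits without a library did, and in female libraries only it was 0.87. In UNx kidneys Timp1 had 3.25 ± 1.08 (adjusted p = 0.374), and its UNx CrePlus libraries ran from 0.412 to 7.19 CPM. Mmp2, a gelatinase, was at 8.78 ± 2.37 CPM in UNx CreMinus and 15.9 ± 3.11 CPM in UNx CrePlus kidneys, with no overlap and a log2 fold change of 0.86 ± 0.28 (adjusted p = 0.373). Adam12 had 1.19 ± 0.45 with UNx in CrePlus kidneys (edgeR adjusted p = 0.692), and 0.22 in female libraries only. For Timp1 and Adam12 alike, UNx CrePlus 3 was the only UNx CrePlus library among the females.

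Of 24 intracellular signalling genes the smallest p-values were those of Rptor, Irs1, Irs2, Akt2, Pik3cb, Rictor and Foxo1. Rptor, a subunit of the mTOR complex that drives growth, had a log2 fold change of -0.25 ± 0.10 with UNx in CrePlus kidneys (edgeR adjusted p = 0.692). Akt2 had -0.12 ± 0.05 with Cre averaged over surgery (adjusted p = 0.374). The 3 IGF mRNA-binding proteins, Igf2bp1, Igf2bp2 and Igf2bp3, did not pass either. Igf2bp1 had 0.95 ± 0.42 with Cre averaged over surgery (edgeR adjusted p = 0.415) and was called with a term for sex (0.76, adjusted p = 0.00432) and with terms for sex and depth (0.75, adjusted p = 0.0471). It was not called in the other 4 of 6 settings or in any of 12 fits that left out a library, where it ran from 0.63 to 1.29 (adjusted p from 0.256 to 0.677). The median log2 fold change with Cre averaged over surgery was -0.10 for ligand supply and growth hormone signalling, -0.12 for receptors, 0.25 for proteases and their inhibitors, 0.07 for intracellular signalling and 0.04 for the mRNA-binding proteins, beside -0.00 for all genes.

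Male and female libraries differed in 4 of the 10 members. This comparison is not in the study's labels and was added after the values had been seen. It was made in edgeR with the 4 groups and a term for sex, over 5 male and 7 female libraries, of which 3 and 1 were deeply sequenced. The 4 members were called beside 20.4% of all genes: Igf1r and Igf2r were higher and Igfbp1 and Igfbp7 lower in male kidneys. Only Igfbp1 had no overlap between male and female libraries, which was so for 9.43% of all genes.

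Igfbp1 was lowest in the male libraries of every group. In female libraries it stood at 40.8 and 41.2 CPM (sham CreMinus), 26.5 and 52.2 CPM (sham CrePlus), 42.5 and 36.6 CPM (UNx CreMinus) and 33.7 CPM (UNx CrePlus). The male values in the same order of groups were 15.9 CPM, 7.36 CPM, 16.5 CPM, and 11.1 and 14.8 CPM. The log2 difference, male minus female, was -1.56 ± 0.21 (SE, edgeR adjusted p = 0.000524), a fold of 2.95. With Cre in UNx kidneys, where the CrePlus group held 1 male more, the log2 fold change of Igfbp1 was -0.68 ± 0.66 (adjusted p = 0.76) without and -0.21 with a term for sex. In sham kidneys, with 1 male in each group, it was -0.18 ± 0.66 (adjusted p = 1.0).

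Igf1r had a median of 243 CPM in male and 198 CPM in female libraries, and the male minus female log2 difference was 0.36 ± 0.07 (edgeR adjusted p = 0.00307). Igf2r had medians of 164 and 129 CPM and a difference of 0.32 ± 0.06 (adjusted p = 0.00431). Both receptors were thus higher in males by about as much as they were with Cre in sham kidneys. Igfbp7 had medians of 995 CPM in male and 1287 CPM in female libraries and a difference of -0.31 ± 0.07 (adjusted p = 0.0131). The call of Igfbp7 was lost with a further term for depth (-0.25, adjusted p = 0.0766) and without UNx CreMinus 1 (-0.26, adjusted p = 0.0738). Igfbp5 had a difference of -0.04 ± 0.08 between the sexes (adjusted p = 0.789).

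**Figure D4:**
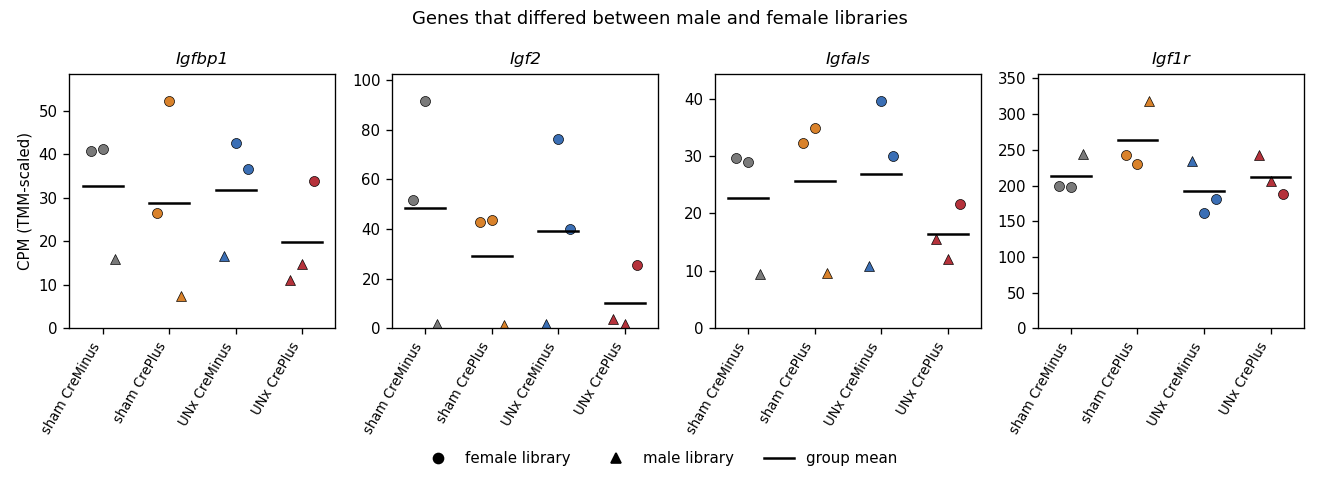
CPM of Igfbp1, Igf2, Igfals and Igf1r in 12 kidney libraries by group, with circles for female and triangles for male libraries and a line at the group mean. Male libraries are below the female libraries of their group for Igfbp1, Igf2 and Igfals and above them for Igf1r.

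In the related lists 14 of 48 genes were called between the sexes, beside 20.4% of all genes. Igf2, the second IGF ligand, was at 25.6 to 91.7 CPM in female and 1.48 to 3.75 CPM in male libraries, a log2 difference of -4.51 ± 0.40 (SE, edgeR adjusted p = 3.47e-05). Its 3 overlapping genes, among them an antisense gene, could not be told apart from it. Igfals, which encodes the acid-labile subunit that joins IGF carriers in blood, was at 21.7 to 39.6 CPM in female and 9.49 to 15.5 CPM in male libraries (-1.43 ± 0.18, adjusted p = 0.000296). Neither gene overlapped between the sexes. Igf2bp1 was higher in males, at 5.12 to 11.9 CPM against 1.79 to 4.79 CPM (1.42 ± 0.10, adjusted p = 7.08e-06).

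The protease gene Pappa was lower in male libraries, with medians of 10.7 and 22.1 CPM (-1.0 ± 0.14, adjusted p = 0.00062). Mtor, the kinase at the centre of growth signalling, was higher in males, with medians of 271 and 174 CPM (0.80 ± 0.09, adjusted p = 0.000135). Irs1, an adaptor of the IGF-1 and insulin receptors, was lower in males (-0.55 ± 0.12, edgeR adjusted p = 0.0095). Insr was lower as well (-0.26 ± 0.07, adjusted p = 0.0305), but it kept its call in only 5 of 12 fits that left out a library and lost it with a term for depth (-0.27, adjusted p = 0.0774). The other 7 called genes were Ghr, Stat5a, Stat5b, Htra1 and Pik3r2, higher in males, and Grb14 and Foxo4, lower in males. Igf1 itself had a male minus female difference of -0.21 ± 0.14 (adjusted p = 0.311).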

How the data were processed

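Each of 12 whole-kidney libraries was taken as 1 mouse. The titles carry what reads as an animal number for 11 libraries and a group name in its place for sham CrePlus 1, so that this library is 1 mouse is assumed. The labels give no replicate numbers, so libraries were numbered in accession order. Per the labels' protocols, column-purified, DNase-treated total RNA was made into libraries with the SMART-Seq v4 kit. The deposited tables hold read counts per gene. They also hold the authors' log2 fold changes, which are shrunken, and adjusted p-values. The submitters' processing notes name FastQC 0.11.5, cutadapt 1.11, HTSeq, DESeq2 and the builds mm10 and GRCm38; no source used here gives the aligner or strand setting.

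The members and lists were chosen with earlier results of these data known. Of 24067 rows, 5 repeated a symbol with the same counts and were dropped. Counts were fitted in R 4.3.3 with edgeR 4.0.16 (filterByExpr, TMM factors of 0.925 to 1.05, 1 model with 4 group means, glmQLFit and glmQLFTest), and with DESeq2 1.42.0 as an alternative. The script was tested on simulated data. The SE is the fold change over the square root of the F statistic. Named related genes are those called, or else the 2 of smallest p per list and comparison; the sex comparison, and the related genes and UNx fold changes printed singly, were picked after the values were seen. Likeness was taken over genes of at least 1 CPM on average. Other alternatives were DESeq2's size factors, no filter, only the 2 groups compared, terms for sex and depth, female libraries only, the 8 less deeply sequenced libraries only, and leaving out each library.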

Additional observations from a re-analysis of the deposited data

How the results depend on the processing

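Under the alternatives, 145 of 148 counts of called members stayed at 0 or, between the sexes, moved by no more than 1.5 times. For UNx and the interaction the main fit called 0% of all genes, so a count that stayed at 0 says little there. The 3 counts that moved were all for Igfbp5. DESeq2 called 1 member in place of 0 for Cre in UNx kidneys and for Cre averaged over surgery. EdgeR with a term for library sex called 1 in that average. The shares of all genes called in these settings were not counted. Some signs changed as well. Over all 10 members and 7 comparisons 93 of 1320 alternative fold changes changed sign, 12 of 570 for Cre and 81 of 750 for UNx and the interaction. No member passed in these comparisons in the main fit, so how stable the signs of passing values are cannot be read from these counts. Because signs changed, UNx fold changes of members are given above only for Igfbp3 and Igf1r, a choice made after the signs were seen. With terms for library sex and depth, the fold change with Cre turned to -0.0208 for Igf1r and 0.0837 for Igfbp7 in UNx kidneys and to 0.0211 for Igfbp3 averaged over surgery, and that of Igfbp3 with UNx in CreMinus kidneys to 0.0276. In female libraries only, where UNx CrePlus 3 was the only library of its group, Igfbp2 and Timp1 had fold changes of -0.45 and -0.46 with Cre in UNx kidneys. Among the 8 less deeply sequenced libraries, the fold change of Igfbp3 with UNx in CreMinus kidneys was 0.10; comparisons that need UNx CrePlus kidneys could not be fitted there. The cause was not tested.

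Leaving out each library in turn gave fold changes with Cre in sham kidneys of -0.0379 to 0.32 for Igf1, -0.95 to 0.27 for Igfbp1, -1.26 to 0.61 for Igfbp2, -0.0706 to 0.01 for Igfbp4 and -0.15 to 0.72 for Igfbp6. The fold change of Igfbp3 with Cre averaged over surgery ran from -0.29 to 0.0306, and with UNx in CreMinus kidneys from -0.34 to 0.32. Igfbp5 with Cre averaged over surgery stayed between 0.32 and 0.42, and Igfbp3 with UNx in CrePlus kidneys between 0.83 and 1.17. Igfbp3 ran from -0.96 to -0.31 with Cre in sham kidneys, from 0.23 to 0.54 with Cre in UNx kidneys and from 0.67 to 1.34 in the interaction. The counts of Igfbp2 and Igfbp6, near 1 CPM, go with the wide errors given above; the smallest difference these libraries could show was not measured. No paired analysis was possible because the labels give no replicate numbers.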
